A study of Mus musculus with 12 samples.

Results

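Long intergenic noncoding RNAs whose genes span 10 kb or more were followed through mouse liver after activation of the nuclear receptors CAR and PXR. They were chosen by annotation alone. An entry had to be named intergenic, lie on an autosome, carry a plus or minus strand and run over at least 10000 bases from start to end, and 3 entries that the rule leaves out by name or place were not counted. This gave 898 of 15558 lncRNAs in the deposited table, out of 12855 autosomal intergenic entries with a strand, and no measured level entered the choice. The shortest one kept, ncRNA_inter_chr5_4142, spans 10013 bases and had 0.0636 to 0.217 RPKM (reads normalised to transcript length and library size) over the libraries, and the longest one below the limit, ncRNA_inter_chr14_12058, spans 9984 bases and had 0.0546 to 0.672 RPKM. Positions are in mouse genome build mm9, and the table names entries by number, with no gene symbol.

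All mice were CD-1, an outbred stock, 8 weeks old, and each had received an agonist by injection. Male whole-liver RNA was sequenced with strand information 3 h and 6 h after TCPOBOP, an agonist of the constitutive androstane receptor (CAR), and 3 h and 6 h after PCN, an agonist of the pregnane X receptor (PXR). These are 4 libraries of 6 pooled livers each. Without strand information there were 8 libraries, all at 3 h. They were 1 male whole-liver library after TCPOBOP (6 livers), 1 male nuclear library after PCN (2 livers), 3 female nuclear pools after TCPOBOP (3, 4 and 4 livers) and 3 male nuclear pools after TCPOBOP (4 livers each). Experiment codes in the labels divide them: G86 for the female pools, G95 for the nuclear pools of TCPOBOP-treated males and G81 for all the rest. No vehicle-treated library was used here, so every comparison is between agonists, times, sexes, compartments or library types. Livers taken at 3 h were collected at 11 AM and those at 6 h at 2 PM, so time after injection and clock hour cannot be told apart. RNA came from whole tissue or from nuclei of whole tissue, so fewer cells of a type and less RNA per cell cannot be told apart either, and the table holds no protein-coding marker with which to check the tissue.

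CAR and PXR are ligand-activated transcription factors of hepatocytes that switch on genes for drug and bile acid metabolism soon after exposure to foreign chemicals. Liver transcription also differs between the sexes, largely through the sex-specific pattern of growth hormone release. Many lncRNAs are spliced and polyadenylated like messenger RNAs but stay in the nucleus at low copy number, so purified nuclei enrich for them, and a long gene can yield a short transcript once its introns are removed.

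Read totals recovered from the RPKM steps were 25.2 to 27.8 M reads in the stranded libraries (M for mega), 40.3 M and 21.9 M in the unstranded whole-liver and nuclear PCN libraries, 22.9 to 32.0 M in the female pools and 7.31 to 11.9 M in the male nuclear TCPOBOP pools. The male pools were thus the shallowest of the 12 libraries, and a count of 0 in them limits a level less tightly than in the female pools.

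Most long genes gave transcripts far shorter than their span. The median span was 17985 bases (quartiles 13052 and 32448) and the longest 595491. For the transcript length behind each RPKM, the full span was taken where it turned every value of an entry into whole reads. Otherwise the shortest length that did so was taken. These lengths had a median of 7482 bases over the 818 entries with a read in any library. Length equalled span for 134 of these (16.4%), against 89.4% of the intergenic entries under 10 kb. As span grew, the share of it that was counted shrank. Among entries with a read, the median length was 52.5% of span in the 455 of 10 to 20 kb, 24.3% in the 249 of 20 to 50 kb, 13.2% in the 71 of 50 to 100 kb and 5.53% in the 43 of 100 kb or more. The lengths themselves changed little over the first 3 of these classes, with medians of 7368, 7459 and 7956 bases, and were 13776 in the longest. Across the 818 entries, which share libraries and annotation, Spearman's rho between span and recovered length was 0.15. The shortest length that fits may be below the true one, and few reads leave it least certain. Reads numbered 1 to 3 in all for 76 entries. For 6 entries the reads share a common factor at the length given.

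**Figure D1:**
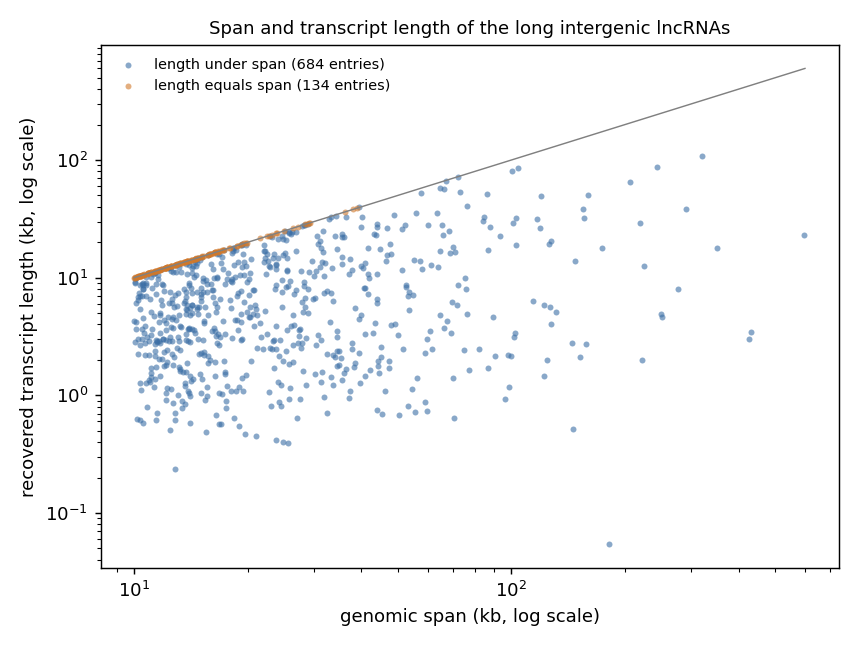
Recovered transcript length (kb, log scale) against genomic span (kb, log scale) of the 818 entries with a read, with the line of equal values. The 134 entries whose length equals their span lie on the line below 40 kb, and lengths at any span range over more than a factor of 10.

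Entries of this size often share ground with others. Another annotated lncRNA overlapped 262 of the 898, on the opposite strand for 253 and on the same strand for 23. Joining overlapping members left 834 separate loci. Chromosome 2 held the most, 75 of its 909 eligible entries (8.25%), and chromosome 5 had the highest share, 69 of 744 (9.27%).

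At least 1 read was found for 818 of the 898 in the 12 libraries together. Of these, 429 had reads in all 12 libraries and 76 had 1 to 3 reads in all. Levels were low. The median of each entry's mean RPKM over the 12 libraries, taken over entries with a read, was 0.115, against 0.0604 for shorter intergenic entries and 0.0746 for all lncRNAs. A mean of at least 1 RPKM was reached by 81 of the 898 (9.02%) and one of at least 10 RPKM by 6. Entries counted over their full span had lower levels than the others. The median was 0.0492 RPKM where length equalled span and 0.129 where it did not, while Spearman's rho between span and level was 0.021 over the 818 entries (values that share libraries and depth). By span class the medians were 0.123, 0.107, 0.0910 and 0.105 RPKM from the shortest class to the longest.

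At least 0.1 RPKM was found for 241 to 271 of the long entries in the stranded libraries and for 374 to 438 in those without strand. These are 26.8% to 30.2% and 41.6% to 48.8% of the 898, against 10.1% to 12.7% and 27.4% to 32.8% of shorter intergenic entries. Their share of all lncRNA reads went the other way. It was 18.4% to 22.6% in the stranded libraries, 12.8% to 14.2% in the male nuclear TCPOBOP pools and 10.4% to 11.4% in the other 5 unstranded libraries, and the 3 ranges do not overlap. The 10 most abundant entries took 18.0% to 27.3% of the members' reads in each library, and the largest share of a single member was 4.44% to 9.87%.

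**Figure D2:**
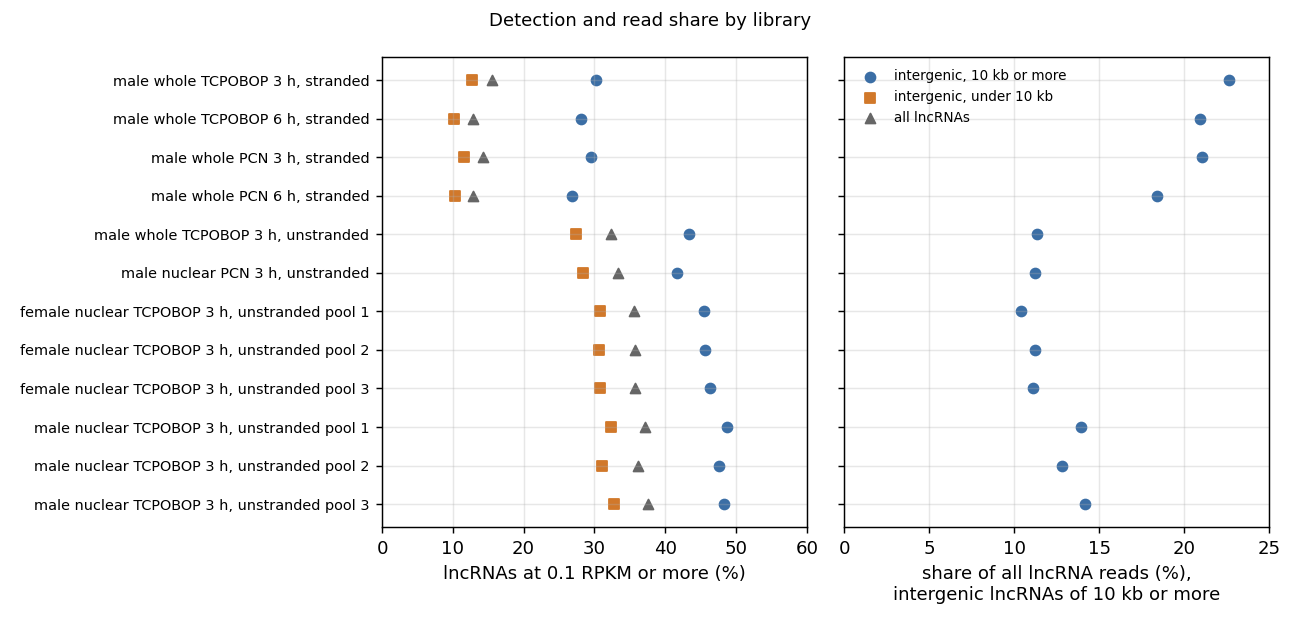
Percent of lncRNAs at 0.1 RPKM or more (left) and the share of all lncRNA reads taken by the long intergenic entries (right, percent) in each of the 12 libraries, 1 point per library and class. Long entries lie to the right of the shorter ones in all 12, and the 4 stranded libraries have the lowest detection and, at 18.4% to 22.6%, the highest read share.

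The most abundant entry was ncRNA_inter_chr4_3458 (chromosome 4 101017064-101028952, minus strand, transcript 3010 bases). It had 48.7 to 62.0 RPKM in the 8 unstranded libraries and 4.87 to 6.73 in the 4 stranded ones. Its level varied little among unstranded libraries of either sex, agonist or compartment. The next, ncRNA_inter_chr17_13576 (chromosome 17 4044658-4082995), a 38338-base span counted over 1734 bases, had 37.1, 44.7 and 56.6 RPKM in the female nuclear pools and 44.8, 59.5 and 60.1 in the male ones. In the nuclear PCN library it had 16.8 RPKM and in unstranded whole liver 9.52, so it was the nuclear TCPOBOP pools that were high. ncRNA_inter_chr16_13177 (chromosome 16 24271005-24296353) had 34.9, 38.2 and 39.2 RPKM in the male nuclear pools, 9.36, 11.9 and 13.9 in the female ones and 21.6 in unstranded whole liver. It held the most reads of any member in 5 of the 12 libraries. The other 7 of the 10 had mean levels from 5 RPKM upward, and in all 7 each unstranded library had at least 3.06 RPKM. ncRNA_inter_chr19_14803 (chromosome 19 11118968-11130399) stood apart from the rest of the 10. Its 7.10 to 8.49 RPKM in stranded libraries overlapped the upper end of the 3.06 to 7.75 in unstranded ones.

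A read was found for 43 of the 45 members of 100 kb or more, and 25 had reads in all 12 libraries. Of the members with at least 10 reads in each of the 12 libraries, 199 in number, the longest was ncRNA_inter_chr10_8794, spanning 319683 bases (chromosome 10 25256087-25575769) with a transcript of 107723 bases, the longest recovered in the table. It had 0.174, 0.176 and 0.253 RPKM in female nuclei, 0.105, 0.120 and 0.126 in male nuclei after TCPOBOP and 0.0181 to 0.0290 in the stranded libraries. Next came ncRNA_inter_chr15_12608 (span 223975 bases, 0.164 to 0.754 RPKM over the 12 libraries), ncRNA_inter_chr12_10628 (206610 bases, 0.0543 to 0.794) and ncRNA_inter_chr14_11845 (154916 bases, 0.0571 to 0.528). The fifth, ncRNA_inter_chr19_14853 (147517 bases), had 1.33, 1.53 and 2.06 RPKM in male nuclei after TCPOBOP, above the 0.569, 0.937 and 1.15 of female nuclei.

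Many long lncRNAs were listed at different levels in a stranded and an unstranded library. Whole liver 3 h after TCPOBOP was sequenced once with strand and once without, from 1 pool each, so the difference has no replicate check and no test. Of 183 members with at least 0.5 RPKM in either, 64 (35.0%) were at least 4-fold lower in the stranded library and 20 (10.9%) at least 4-fold higher, on the log2(RPKM + 0.1) scale, and the median difference was -1.59. Over all 1933 lncRNAs at that level the shares were 55.8% and 8.85% and the median -2.24. The 20 higher ones nearly all shared their ground with an entry on the other strand, which held for 19 of them, with a median of 71.8% of the span covered among the 20. No read limit was set, and ncRNA_inter_chr5_4081, one of the 19, had 1 stranded read (0.720 RPKM) and 0 unstranded. Among the 115 members with no opposite-strand overlap 49 were at least 4-fold lower and 1 at least 4-fold higher in the stranded library. Where over 90% of the span was covered, 7 of 10 stood at least 4-fold higher in it and 2 stood lower by as much. This comparison and its split were added after the data had been seen. How the authors' counting treated reads in overlapping entries is not given in the sources used here, and its part in these values was not tested.

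Single loci show the pattern in different forms. ncRNA_inter_chr5_4220 (chromosome 5 53364211-53383969, minus) and ncRNA_inter_chr5_4221 (chromosome 5 53364232-53387386, plus) overlap over 99.9% of the first. The minus entry had 1438 reads (4.42 RPKM) in the stranded library and 0 in the unstranded one, and 0 in all 8 unstranded libraries. Its plus partner had 5 reads (0.00886 RPKM) and 2096 reads (2.37 RPKM), and 2.37 to 4.46 RPKM over the 8 unstranded libraries. Reads at this locus were thus listed under opposite entries in the 2 library types, which did not hold for the next 2 entries. ncRNA_inter_chr16_13170 (chromosome 16 24076567-24098742), with 60.3% of its span covered from the other strand, had 3129 reads (8.36 RPKM) stranded and 0 unstranded, and ncRNA_inter_chr1_119 (chromosome 1 27940847-27961994, 23.0% covered) 687 and 0. Their opposite-strand partners also had 0 reads in the unstranded whole-liver library, so these reads were listed under neither entry there. In the opposite direction, ncRNA_inter_chr12_10270 (chromosome 12 7913266-7957157), which overlaps no opposite-strand entry, had 2405 reads (9.05 RPKM) unstranded and 1 read stranded. It had 5.74 to 11.7 RPKM in the 8 unstranded libraries and 1 read in the 4 stranded ones together. ncRNA_inter_chr7_6283 (chromosome 7 82913751-82925625) likewise had 1561 reads and 0, and 2.99 to 5.06 RPKM over the unstranded libraries. ncRNA_inter_chr13_11550, among the 10 most abundant and wholly covered by entries on the other strand, had 12.7 to 49.0 RPKM unstranded and 1.12 to 1.76 stranded. Apart from the last, which the rule for abundant entries names with chr12_10270, these loci were chosen after their values were seen. For every entry below, the reads of an unstranded library do not record the strand. How those in overlapping entries were counted is not known.

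**Figure D3:**
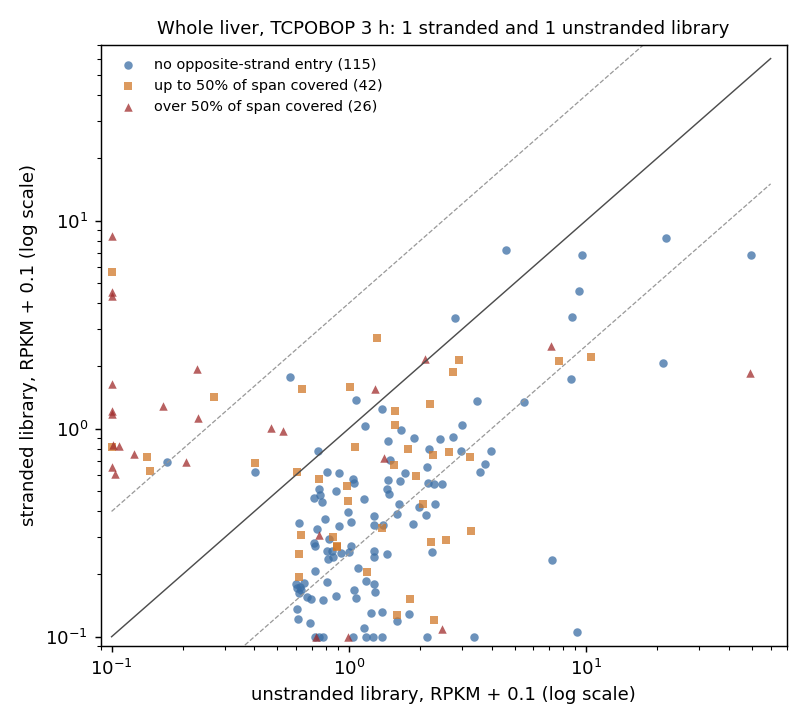
Level in the stranded against the unstranded whole-liver library 3 h after TCPOBOP (RPKM + 0.1, log scales; 1 library each) for the 183 members with at least 0.5 RPKM in either, marked by how much of the span entries on the opposite strand cover. The solid line is equality and the broken lines are 4-fold, and the points at the left edge with levels up to 8.36 RPKM stranded are nearly all overlapped entries.

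Female and male liver nuclei were compared 3 h after TCPOBOP, where the design has 3 pools of each sex. Long intergenic lncRNAs that differed were more often higher in males. Of 436 members with at least 0.1 RPKM in 3 of the 6 pools, limma called 55 (12.6%), taking an adjusted p under 0.05. Females had the higher level for 16 of them (3.67%) and males for 39 (8.94%), and 381 members did not pass. Over all 5951 lncRNAs tested 8.79% were called, 3.92% higher in females and 4.87% higher in males. Among the calls 4 were at least 4-fold higher in females and 8 in males, on the log2(RPKM + 0.1) scale. Over the 436 members the median log2 difference (female minus male) was -0.13, against -0.09 over all lncRNAs. The pools did not overlap between the sexes for 194 members (44.5%), 62 higher in females and 132 in males, against 31.3% of all lncRNAs. With library medians set equal the median over all lncRNAs moved from -0.09 to 0.05 and the member calls split 24 to 34. All female pools are of experiment G86 and all male ones of G95, so the sexes and the experiments cannot be told apart. Leaving out female pool 1, 2 or 3 lowered the count to 26, 33 and 35.

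**Figure D4:**
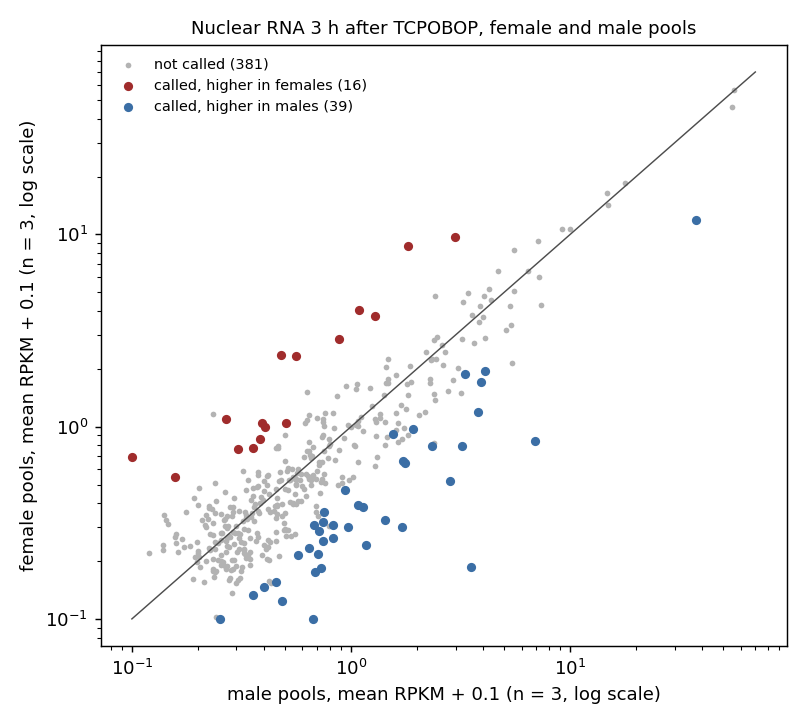
Mean level in the 3 female against the 3 male nuclear pools after TCPOBOP (RPKM + 0.1, log scales) for the 436 members tested, with the line of equality. The 39 calls higher in males lie below the line from under 1 to over 10 RPKM, and the 16 higher in females above it.

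The highest in females by log2 difference was ncRNA_inter_chr13_11189 (chromosome 13 35055917-35067304, plus). It had 0.484, 0.642 and 0.667 RPKM in the female pools (108, 183 and 136 reads) and no read in any male pool, a level at least 53.1-fold higher when 3 reads are allowed to the male pools together (limma adjusted p = 0.0015). Among these pools it reached the 0.1 RPKM filter only in the female ones, where it was high. Its spread between male pools was 0. All 6 other male libraries held at most 3 reads of it. ncRNA_inter_chr3_2915 (chromosome 3 133452176-133496100), a 43925-base span counted over 748 bases, had 7.22, 7.53 and 11.1 RPKM in females and 1.88, 2.38 and 0.899 in males, 5.02-fold higher by the means (log2 2.33, SE 0.35, limma adjusted p = 0.00706). Its unstranded levels in other male libraries were lower still, 0.465 and 0.305 RPKM.

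The calls named on chromosome 2 were ncRNA_inter_chr2_1419 (67808739-67880891) and ncRNA_inter_chr2_1431 (68641196-68651711). The first, with a transcript of 72073 bases, had 3.12, 3.07 and 2.07 RPKM in females and 0.981, 0.398 and 0.964 in males (log2 1.76, SE 0.34, limma adjusted p = 0.0197). Entries on the other strand cover 29.8% of it, and the 4 stranded libraries held 0 to 5 reads. The second had 1.22, 1.16 and 0.616 RPKM in females and 0.116, 0.169 and 0.224 in males (5.89-fold by the means, log2 1.99, SE 0.31, limma adjusted p = 0.00912). Both calls were lost without female pool 1, and the first without female pool 2 as well (the adjusted p ranged to 0.0887 and 0.0546 over the alternatives in limma).

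Among the more abundant, ncRNA_inter_chr15_12684 (chromosome 15 75245949-75262384) had 10.9, 9.37 and 8.39 RPKM in female and 3.21, 3.77 and 1.67 in male nuclei, 3.31-fold higher (limma adjusted p = 0.0112, and up to 0.0586 without female pool 1). ncRNA_inter_chr5_4763 (chromosome 5 147446801-147457057) had 4.32, 2.59 and 4.95 RPKM against 1.47, 0.821 and 0.689 (limma adjusted p = 0.0132, lost without female pool 1 or 3). The remaining 4 named on this side include ncRNA_inter_chr1_290 (2.25 ± 0.785 RPKM in females and 0.379 ± 0.112 in males, SD, n = 3) and ncRNA_inter_chr8_6946 (2.23 ± 0.485 and 0.462 ± 0.171). ncRNA_inter_chr12_10922 was the exception among the 16 calls higher in females, in that another male library reached the female range: it had 2.65, 3.35 and 4.93 RPKM in female pools, 1.23, 1.23 and 1.09 in male ones, and 3.63 in unstranded whole liver of males. ncRNA_inter_chr7_6709 had 0.449 ± 0.157 and 0.0570 ± 0.0483 RPKM, on 19 reads in the male pools, and its call was lost in 6 alternatives (limma adjusted p up to 0.102).

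Highest in males stood ncRNA_inter_chr4_3468, which spans 114086 bases at chromosome 4 103055088-103169173 and is counted over 6305 of them. Its level was 3.58, 2.88 and 3.80 RPKM in male pools and 0.0254, 0.139 and 0.0971 in female ones, 39.3-fold higher by the means (log2 -4.27, SE 0.28, limma adjusted p = 0.000246). It was the lone call among the 21 members of 100 kb or more that were tested. The other male libraries held it too, at 2.89 RPKM in unstranded whole liver, 3.70 in PCN nuclei and 0.552 to 0.969 in the stranded libraries, each above every female pool.

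Close together at chromosome 8 116533748-116655605, on the minus strand, lie ncRNA_inter_chr8_7423 and ncRNA_inter_chr8_7430. The latter had 6.50, 5.77 and 8.20 RPKM in male and 0.513, 0.809 and 0.903 in female pools, 9.19-fold higher (log2 -3.06, SE 0.24, limma adjusted p = 0.00053). The former, an 86698-base span, had 3.22, 2.21 and 2.79 RPKM against 0.267, 0.558 and 0.433, 6.53-fold higher (limma adjusted p = 0.0023). In G81 males both were lower than in the G95 pools, at 2.64 and 3.00 RPKM for the latter and 1.47 and 0.971 for the former in the 2 unstranded libraries.

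ncRNA_inter_chr1_630 (chromosome 1 149213748-149238415) had no read in any female pool and 0.625, 0.749 and 0.337 RPKM (50, 41 and 30 reads) in the male ones, a level at least 113.6-fold higher when 3 reads are allowed to the female pools together (limma adjusted p = 0.00373). Among these pools it reached the 0.1 RPKM filter only in the male ones, where it was high. Its spread between female pools was 0. In the G81 males it had 7 reads in unstranded whole liver, 1 read in PCN nuclei and 0 to 20 reads in the stranded libraries. In both unstranded G81 libraries its level was above the female pools but nearer to them than to the male pools. The same held for ncRNA_inter_chr3_2504, with 1.94, 1.16 and 1.75 RPKM in male pools, 0.188, 0.203 and 0.209 in female pools and 0.297 and 0.445 in the 2 unstranded G81 libraries. By contrast ncRNA_inter_chr10_9351 (chromosome 10 120943639-120964659) had 1.29, 1.12 and 0.798 RPKM in male pools, 0.127, 0.134 and 0.163 in female ones and 1.68 and 4.40 in the G81 males. The last 4 named on this side, ncRNA_inter_chr12_10910, ncRNA_inter_chr7_6509, ncRNA_inter_chr14_11858 and ncRNA_inter_chr18_14223, were 4.49-fold to 7.65-fold higher in males by the means. ncRNA_inter_chr18_14223 reached the 0.1 RPKM filter only in the male pools, with 0.0792 to 0.0905 RPKM in the female ones.

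Among the calls, how far other male libraries followed the male pools differed by direction. The calls were picked on the levels of those same pools, and no such share over all lncRNAs was worked out. For the 16 calls higher in females, the unstranded whole-liver and PCN nuclear libraries of males both lay below every female pool in 15, and in 14 (87.5%) both were closer on the log2 scale to the mean of the male pools than to that of the female ones. For the 39 calls higher in males, both lay above every female pool in 27 but both nearer the male mean in 7 (17.9%), and neither was nearer the male mean in 15. These libraries differ from the pools in compartment or agonist as well as experiment, and the part of each was not tested. Calls were spread over span classes, with 27 of 239 members of 10 to 20 kb, 22 of 138 of 20 to 50 kb and 5 of 38 of 50 to 100 kb. Among the 131 tested members that overlap an opposite-strand entry 14 were called (10.7%), and among the 305 others 41 (13.4%).

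**Figure D5:**
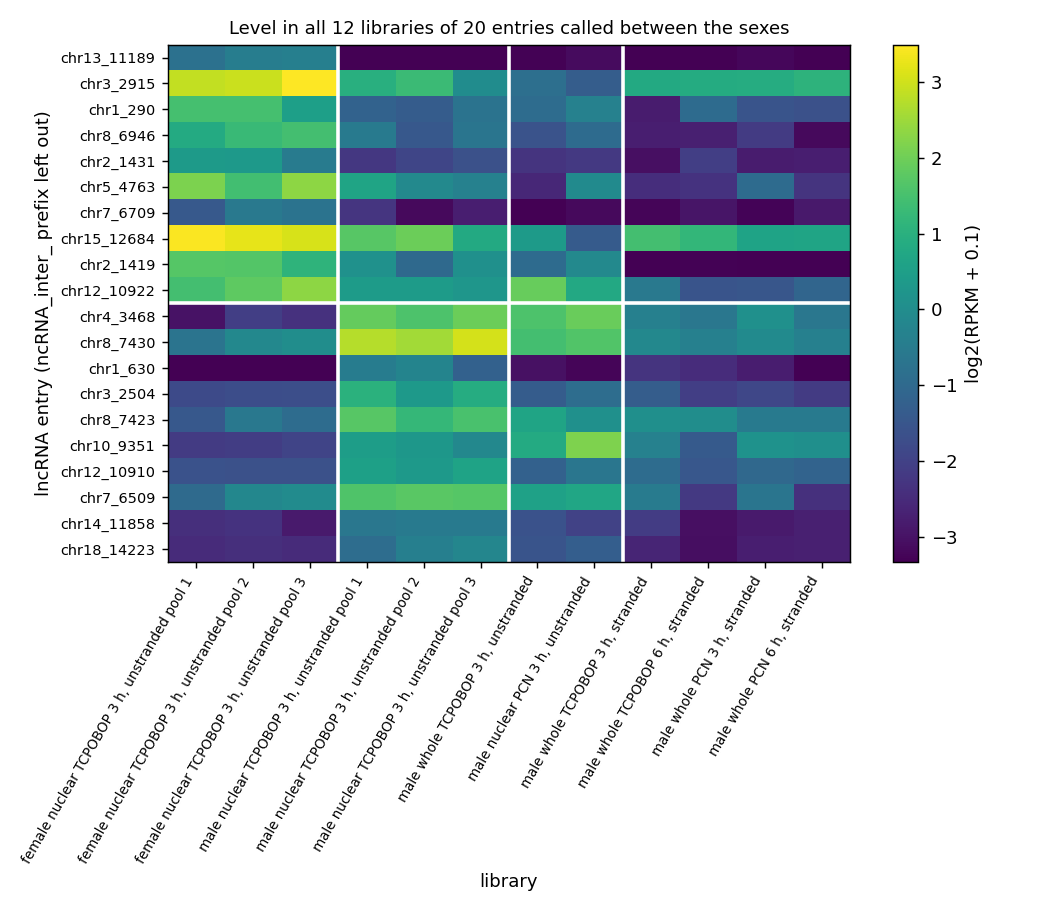
Level, as log2(RPKM + 0.1), of the 20 named entries called between the sexes in each of the 12 libraries, the 10 higher in females above the 10 higher in males; white lines part female pools, male pools, the 2 unstranded G81 libraries and the 4 stranded ones. Entries of the upper block are bright in the 3 female columns, while in the lower block entries such as chr4_3468 stay bright in the unstranded G81 columns and chr1_630 and chr3_2504 do not.

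In nuclear RNA of males, TCPOBOP (3 pools) was set against PCN (1 library) at 3 h, with the single library assumed to vary like the replicated pools. Few long intergenic lncRNAs were called, and most of those were higher with TCPOBOP. Of 506 members tested limma called 18 (3.56%), 14 higher with TCPOBOP and 4 higher with PCN, against 4.27% of all 7401 lncRNAs, 2.86% and 1.41% by direction. The median log2 difference was 0.39 in members and 0.25 over all lncRNAs. With library medians equal the latter moved to 0.00 and the member calls were 7 and 6. Without male pool 1 the count was 2, without male pool 3 it was 5, and in the 5 male libraries alone it was 7. The TCPOBOP pools are of experiment G95 and the PCN library of G81, so agonist and experiment cannot be told apart.

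ncRNA_inter_chr15_12684 had 3.21, 3.77 and 1.67 RPKM with TCPOBOP and 0.287 with PCN (32 reads), 10.04-fold higher (log2 2.87, SE 0.44, limma adjusted p = 0.0262). ncRNA_inter_chr7_6087 (chromosome 7 37980940-37993863) had 9.32, 4.58 and 7.96 RPKM and 1.07 (log2 2.59, SE 0.41, limma adjusted p = 0.0299), and 3.57 to 5.02 RPKM in female TCPOBOP pools. ncRNA_inter_chr8_7339 (chromosome 8 96946808-96959003) had 1.77, 1.52 and 1.90 RPKM and 0.299, over 16 reads with PCN (log2 2.19, SE 0.23, limma adjusted p = 0.0103). Female pools held it at 1.26 to 1.54 RPKM, and among the 6 named on this side its call alone held in all alternatives run. The other 3 were ncRNA_inter_chr1_630, ncRNA_inter_chr8_7512 and ncRNA_inter_chr2_1302. They were 93.7-fold (on 1 read with PCN), 12.2-fold and 5.74-fold higher with TCPOBOP by the means. Among the unstranded libraries, the first of these 3 reached the 0.1 RPKM filter only in the male TCPOBOP pools, where it was high. These 3 and the first 2 each lost the call in 3 or 4 alternatives, with limma adjusted p up to 0.144 to 0.165.

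ncRNA_inter_chr7_5922 was the furthest the other way. Spanning 122164 bases at chromosome 7 15550326-15672489 and counted over 1463, it had 5, 0 and 1 reads in the male TCPOBOP pools (0.320, 0 and 0.0575 RPKM) and 448 reads (14.0 RPKM) with PCN, 110.9-fold higher (log2 -6.23, SE 0.83, limma adjusted p = 0.0179). Male libraries alone, leaving out male pool 3, or adding 0.01 in place of 0.1 before the log each ended the call (limma adjusted p up to 0.131). But whole liver of males after TCPOBOP, of the same experiment as the PCN library, had 418 reads (7.09 RPKM), and the 4 stranded libraries of that experiment 1 to 10 reads. ncRNA_inter_chr10_9351, the other well-covered call, had 1.29, 1.12 and 0.798 RPKM with TCPOBOP and 4.40 with PCN. ncRNA_inter_chr13_11523 had 1 to 3 reads in each male TCPOBOP pool and 54 with PCN. It reached the 0.1 RPKM filter only in the PCN library and in unstranded whole liver, where it was high. ncRNA_inter_chr12_11001 had 0 reads in all 6 replicated pools and 4 with PCN. Its spread between pools was thus 0, and its error combines that 0 with the mean-variance trend. It too reached the filter only in the 2 unstranded G81 libraries. These 3 calls were lost in 2, 4 and 3 alternatives, with limma adjusted p up to 0.131, 0.114 and 0.141. The unstranded whole-liver TCPOBOP library lay outside the male pools on the side of the PCN library for 14 of the 14 calls higher and 4 of the 4 lower with TCPOBOP. It lay nearer the PCN library than the pools for 11 and 3 of them. The calls were picked on the levels of these same pools, which favours such counts. No share over all lncRNAs was worked out beside them.

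Nuclear and whole-liver RNA after TCPOBOP were compared with the same 3 male pools against 1 unstranded whole-liver library. limma called 37 of 506 members (7.31%), 24 higher in nuclei and 13 higher in whole liver, against 10.3% of all lncRNAs, 7.26% and 3.07% by direction. The median log2 difference was 0.36, and 0.27 over all lncRNAs. With library medians equal, which moved the latter to 0.03, the calls were 13 and 15. Without male pool 1 the count was 14, without male pool 3 it was 22, and in the male libraries alone it was 15. Compartment and experiment cannot be told apart, and this comparison shares its pools with that of the agonists.

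ncRNA_inter_chr17_13576, the second most abundant member, differed most in absolute level among the 6 named, with 59.5, 44.8 and 60.1 RPKM in nuclei and 9.52 in whole liver (5.76-fold, log2 2.50, SE 0.29, limma adjusted p = 0.00827). In the nuclear PCN library of G81 it had 16.8 RPKM. ncRNA_inter_chr8_7339 had 0.183 RPKM (18 reads) in whole liver and 1.73 ± 0.195 in nuclei (SD, n = 3), 9.42-fold higher (limma adjusted p = 0.00453), and 0.299 in PCN nuclei. For ncRNA_inter_chr5_4763 the values were 0.0690 RPKM in whole liver, 0.992 ± 0.416 in nuclear TCPOBOP pools and 0.861 in PCN nuclei, so both nuclear groups stood above whole liver (limma adjusted p = 0.0265, up to 0.162 and lost in male libraries alone, without male pool 1 and when 1 was added before the log). As in the agonist contrast, ncRNA_inter_chr1_630 reached the filter only in the male TCPOBOP pools. ncRNA_inter_chr5_4273, ncRNA_inter_chr1_630 and ncRNA_inter_chr6_5502 were 30.7-fold (on 3 reads in whole liver), 24.6-fold (on 7 reads) and 5.25-fold higher in nuclei. They lost the call in 3, 3 and 5 alternatives, with limma adjusted p up to 0.133, 0.149 and 0.184.

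Higher in whole liver was ncRNA_inter_chr6_5440 (chromosome 6 99419527-99433983), with 1.50 RPKM (876 reads) in whole liver and 0.0907, 0.180 and 0.0814 in nuclei (12.8-fold, log2 -2.91, SE 0.41, limma adjusted p = 0.0132, and 0.0699 in male libraries alone). PCN nuclei had 0.804 RPKM and the stranded whole-liver libraries 0.0108 to 0.0188, so the reads seen without strand were all but missing with it. ncRNA_inter_chr5_4577 (chromosome 5 120020136-120067970) had 21.0 RPKM in whole liver and 5.19, 5.05 and 6.08 in nuclei (3.86-fold, limma adjusted p = 0.0182, lost without male pool 1), and 7.20 in PCN nuclei. ncRNA_inter_chr16_13444 had 0.282 RPKM in whole liver and 0.0311 ± 0.0121 in nuclei, and its call was lost in 4 alternatives (limma adjusted p up to 0.0669). ncRNA_inter_chr7_5922, ncRNA_inter_chr13_11523 and ncRNA_inter_chr12_11001 are named here as well, with 418, 83 and 7 reads in whole liver, and lost the call in 2, 2 and 1 alternatives. ncRNA_inter_chr13_11523 and ncRNA_inter_chr12_11001 reached the 0.1 RPKM filter only in unstranded whole liver and PCN nuclei, where they were high. The nuclear PCN library, a nuclear one of G81, lay nearer whole liver than the pools for 20 of the 24 calls higher in nuclei and 7 of the 13 higher in whole liver. Here too the calls were picked on the same pools, and no share over all lncRNAs was worked out.

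TCPOBOP and PCN were also compared in stranded whole-liver RNA at 3 h and 6 h, 1 library per agonist and time. The fit is additive with 1 residual degree of freedom, so its error is the agonist-by-time interaction and not a spread between pools. Of 279 members tested limma called 0 (0.0% of 2270 lncRNAs tested), with the lowest adjusted p at 0.596 and 8 members at an unadjusted p under 0.05. limma-voom on recovered reads called 0 as well. At least 2-fold differences the same way at both times numbered 2 higher with TCPOBOP (0.717%) and 0 higher with PCN, against 1.94% and 1.54% of all lncRNAs.

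ncRNA_inter_chr19_14873 (chromosome 19 23135639-23148147, plus) was one of these. After TCPOBOP its level was 4.26 RPKM at 3 h and 2.49 at 6 h (1343 and 852 reads), and after PCN 1.74 and 0.399 (548 and 123 reads). It had no read in any of the 8 unstranded libraries, and its whole span is covered by an entry on the minus strand. The other, ncRNA_inter_chr19_15097 (chromosome 19 48139947-48153940), had 14 and 34 reads with TCPOBOP and none after PCN. Among the stranded libraries it reached the 0.1 RPKM filter only after TCPOBOP, where it was high. Other TCPOBOP libraries did not all hold it. Unstranded whole liver had 197 reads, the female pools 96, 83 and 0, and the male nuclear pools 0 each, so pools of the same sex and treatment differed. Named next, ncRNA_inter_chr4_3052 had 0.467 and 0.366 RPKM after TCPOBOP against 0.196 and 0.00757 after PCN, and ncRNA_inter_chr17_13938 (96.7% covered from the other strand) 1.54 and 0.578 against 0.743 and 0.249. ncRNA_inter_chr12_10454 had 28 and 35 reads against 9 and 16.

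With more in the PCN libraries, ncRNA_inter_chr16_13190 (chromosome 16 29986058-30021656) had 0.405 and 0.441 RPKM after PCN, at 3 h and 6 h, against 0.171 and 0.116 after TCPOBOP. ncRNA_inter_chr16_13349 had 1.02 and 2.53 RPKM against 0.631 and 1.16, and ncRNA_inter_chr10_9351 1.00 and 0.947 against 0.696 and 0.281. For the latter the log2 difference was -0.96 (SE 0.37, limma adjusted p = 0.686), with all 4 libraries of 1 experiment. The other 2 named, ncRNA_inter_chr1_476 and ncRNA_inter_chr5_4482, rest on 0 to 6 reads per library.

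Between 3 h and 6 h limma called 0 of 279 members (0.0% of 2270 lncRNAs), the lowest adjusted p being 0.328, and 25 members had an unadjusted p under 0.05. limma-voom called 0. Levels leaned lower at 6 h, with a median log2 difference of -0.21 in members and -0.16 over all lncRNAs, and 184 of 279 members were lower. With both agonists 3 members were at least 2-fold higher at 6 h (1.08%) and 7 at least 2-fold lower (2.51%), against 2.16% and 3.83% of all lncRNAs. With library medians equal these were 6 and 4.

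ncRNA_inter_chr7_6509 (chromosome 7 119330731-119347888, plus), which was also higher in male nuclei, had 0.608 RPKM at 3 h against 0.117 at 6 h after TCPOBOP, and 0.524 against 0.0930 after PCN (187, 39, 161 and 28 reads). ncRNA_inter_chr11_9646 (chromosome 11 45646635-45665389) had 0.871 against 0.224 RPKM after TCPOBOP and 0.844 against 0.211 after PCN. Their log2 differences were nearly the same with each agonist, -1.71 and -1.69 for the former and -1.58 and -1.60 for the latter (limma adjusted p = 0.328 for both). ncRNA_inter_chr11_9925 had 1.21 against 0.369 RPKM after TCPOBOP and 0.790 against 0.174 after PCN. The minus-strand entry ncRNA_inter_chr5_4220 described above, among the 7, had 4.42 against 2.00 RPKM after TCPOBOP and 4.40 against 1.74 after PCN, on 555 to 1438 reads. ncRNA_inter_chr17_13938 had 1.54 against 0.578 and 0.743 against 0.249 RPKM. The other 2 of the 7, ncRNA_inter_chr1_406 and ncRNA_inter_chr13_11437, rest on 1 to 49 reads per library. The latter reached the 0.1 RPKM filter only at 3 h, where it was high. Named without reaching 2-fold with both agonists, ncRNA_inter_chr5_4065 had 0.731 against 0.0709 and 0.287 against 0.153 RPKM, and an entry on the other strand covers 99.8% of it.

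An overlapping pair on opposite strands had at least 2-fold more at 6 h with both agonists. ncRNA_inter_chr2_2017 (chromosome 2 167679265-167693755, plus) had 0.153 RPKM at 3 h against 0.580 at 6 h after TCPOBOP, and 0.201 against 0.557 after PCN. ncRNA_inter_chr2_2016 (chromosome 2 167678088-167693755, minus), which covers it wholly, had 0.138 against 0.427 and 0.221 against 0.557 RPKM. The unstranded libraries, all of 3 h, held 0 reads of the first and 0 to 5 of the second. The third at least 2-fold higher, ncRNA_inter_chr5_4322, rests on 0 to 4 reads per library. It reached the 0.1 RPKM filter only at 6 h, where it was high. ncRNA_inter_chr15_12319 (chromosome 15 3195254-3208922), named first by mean difference, had 0.441 against 0.859 RPKM after TCPOBOP and 0.225 against 1.33 after PCN. ncRNA_inter_chr9_7999 had 0.0674 against 0.598 and 0.0933 against 0.217 RPKM, and ncRNA_inter_chr5_4115 had 1 against 69 and 31 against 91 reads. Both of these also reached the filter only at 6 h. None of the 5 named passed in limma, at adjusted p from 0.351 to 0.428.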

How the data were processed

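The authors deposited RPKM values, per the file headers, of 15558 lncRNAs in polyadenylated liver RNA, aligned with TopHat2 to mm9 per the submitters' processing notes. Which tool counted the reads, with what strand setting and on which annotation, is not given in the sources used here. Of 25 value columns 12 matched the labels and 13 were not used. Recovered library totals and transcript lengths made 100% of 89242 values above 0 whole within 1e-06 of a read. A count of 0 allows up to 3 reads, and such floors cover counting error only. log2(RPKM + 0.1) was fitted with limma 3.58.1 in R 4.3.3 (mean-variance trend), on entries at 0.1 RPKM or more in 3 of 6 pools (sex) or 2 libraries (others), with Benjamini-Hochberg adjustment over all lncRNAs tested. Such fold changes understate changes of low entries. The sex fit used the 6 pools, the nuclear contrasts all 8 unstranded libraries with 4 residual degrees of freedom, and the agonist and time effects the 4 stranded libraries. Folds by the means are ratios of mean RPKM. P-values of the sex fit measure the spread between pools, each of several livers. In the nuclear contrasts that spread is assumed for the single library. In the agonist and time fits the error is the agonist-by-time interaction.

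Named entries were the 10 highest by mean RPKM, the 5 longest with at least 10 reads in each library, the 10 highest and 10 lowest sex calls that did not overlap, 6 and 6 calls for each nuclear contrast whose single library lay outside the range of the 3 male pools, and, called or not, 5 and 5 for agonist and time whose 2 differences went the same way. The entries named by comparison had at least 0.2 RPKM on the higher side. The nuclear rule found 4 on the PCN side. Entries and lists were chosen with earlier results of these data known. The reference genome used here is of another build than the files, so no sequence or neighbouring gene is given. The fits were tested on simulated data.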

Additional observations from a re-analysis of the deposited data

Results flagged for a closer look

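ncRNA_inter_chr8_7339 had agonist differences of opposite sign in 2 kinds of RNA, of which the stranded one did not pass the test (limma adjusted p = 0.889). In stranded whole liver it was lower with TCPOBOP than with PCN at both times, by a mean log2 difference of -0.21 (-0.18 at 3 h and -0.24 at 6 h, on 24 to 31 reads per library), and in nuclear RNA it was higher by 2.19. Both stranded pairs lay on one side, by a few reads, and all 3 nuclear pools on the other. The difference between the 2 was not tested, and in the nuclear contrast agonist and experiment cannot be told apart.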

How the results depend on the processing

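No named difference changed sign under the alternatives run, but with library medians equal the balance of directions did: nuclear against whole-liver calls went from 24 higher and 13 lower to 13 and 15, and the 2-fold time counts from 3 and 7 to 6 and 4. Sex calls numbered 123 with limma-voom on recovered reads (34 higher in females), 26 to 52 without 1 pool and 35 with a replicate block (11 higher in females). The pool numbers do not pair the sexes: deviations of same-numbered pools from their group means correlated at -0.018, -0.074 and -0.00022. Nuclear agonist calls numbered 28 with a pseudocount of 0.01, 36 with no filter, 43 at a mean of at least 0.5 RPKM, 91 with limma-voom, 7 in male libraries alone and 2 to 20 without 1 pool. Nuclear against whole-liver calls numbered 147 with limma-voom, 15 in male libraries alone and 14 to 37 without 1 pool. For stranded agonist and time, 1 and 7 were called at a mean of at least 0.5 RPKM and 30 and 46 with spread from all 12 libraries. Entries at least 2-fold apart numbered 7 (agonist) and 23 (time) with a pseudocount of 0.01 and 0 and 0 with a pseudocount of 1. The median RPKM of 0.0661 over members and libraries became 0.0894 over members above 0 in any library. Counting overlapping members once left the counts of calls as they were. Of the checks on single named sex calls 243 kept the call and 12 lost it; for the nuclear agonist and compartment calls these were 68 and 29, and 89 and 25. Depth limits the male pools most, and below about 10 reads a level rests on single reads.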
